A study of Oryzias latipes with 6 samples.

Results

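Hearts of AXER-KO medaka that carried 1 active copy of ATF6α were compared with WT hearts at 5 dpf (days after fertilization), to see which changes remained or appeared in the null heart when ATF6α was constitutively active. The comparison rested on the 6 libraries labelled AXER-/- with ATF6(N/+), written here as KO + ATF6(N), and the 6 libraries labelled AXER+/+, written as WT, which are 12 of the 36 libraries of the series. KO hearts (AXER-/-) and WT + ATF6(N) hearts (AXER+/+ with the same active copy), with 6 libraries each, served to place the changes. Both alleles are germline changes and are therefore present in every cell of the embryo. The AXER allele is a small deletion made with TALENs that shifts the reading frame early in the gene, and ATF6(N) was made with CRISPR/Cas9 by deleting the luminal and most of the transmembrane coding region from 1 copy of ATF6α. RNA of whole hearts was sequenced, and fish erythrocytes keep their nuclei, so the RNA is a mixture of heart and blood RNA in which fewer cells of a type and less RNA per cell cannot be told apart.

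AXER, also known as SLC35B1, is the transporter that exchanges cytosolic ATP for ADP across the ER membrane, and chaperones of the ER lumen such as BiP need this ATP to fold proteins. When unfolded proteins accumulate, the unfolded protein response is switched on through the sensors IRE1, PERK and ATF6. ATF6α is a membrane protein whose cytosolic fragment is released by proteolysis in the Golgi and enters the nucleus, where it activates genes of ER chaperones and of ER-associated degradation. The ATF6(N) allele makes the nuclear fragment without this step. The paper reports that, in younger AXER-KO medaka, active XBP1 (downstream of IRE1) but not active ATF6α induced components of ER-associated degradation.

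The deposited estimates totalled 2692071 to 11455186 reads per library in KO + ATF6(N) hearts (median 5757233.5) and 2524357 to 11139745 in WT hearts (median 4013867.5). They totalled 3067532 to 19619140 in KO hearts (median 5587767) and 3532413 to 10257903 in WT + ATF6(N) hearts (median 4966114.5). Each library correlated with the other libraries of its own genotype at a mean Pearson's r of 0.876 to 0.914 in KO + ATF6(N) hearts and 0.871 to 0.908 in WT hearts, over log2 levels of the transcripts tested. Each library's 10 most abundant transcripts held 21.8 ± 2.93% of the reads in KO + ATF6(N) hearts and 19.58 ± 1.87% in WT hearts (SD, n = 6 each, two-sided exact permutation p = 0.152, smallest possible p = 0.00216). No pair of libraries of a genotype looked like 1 library deposited again, but no source used here says that the 6 libraries of a genotype are different hearts or clutches. The p-values therefore measure a spread between libraries that may be technical. Levels are in CPM, that is, a transcript's reads relative to its library's total after TMM scaling, with no correction for transcript length. The tables hold 37495 medaka transcripts by Ensembl identifier, and 0 of these could be paired with a gene name. AXER, ATF6α, ER chaperones and the markers of cardiomyocytes, erythrocytes and other cells were therefore not looked up, the genotypes and the tissue were not checked against their genes, and transcripts are described by their rank. The largest rise of KO + ATF6(N) over WT is called rise 1 and the largest fall, fall 1, and identifiers are given for the 2 largest rises and the 2 largest falls whose libraries did not overlap.

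Between KO + ATF6(N) and WT hearts, 0.592% of the 18076 transcripts tested differed. Of all tested, 79 transcripts were raised (0.437%) and 28 had fallen (0.155%). The raised transcripts had a median log2 fold change of 1.05 (range 0.60 to 5.70), and 43 of them were more than 2-fold and 14 more than 4-fold higher. The fallen ones had a median of -0.88 (range -1.98 to -0.61), and 7 of them were more than 2-fold lower and 0 more than 4-fold lower. Over all transcripts tested the median was -0.01. A transcript was called at a Benjamini-Hochberg adjusted p under 0.05 from edgeR's quasi-likelihood test and a fold change above 1.5, and the calls closest to that limit were 1.52-fold changes in either direction. Another 2 transcripts passed the adjusted p but not the fold change, and 1023 transcripts (5.66%) had an unadjusted p under 0.05. All 6 KO + ATF6(N) libraries lay above all 6 WT libraries for 68 of the 79 raised transcripts, against 0.752% of all transcripts tested, and below them for 20 of the 28 fallen ones, against 0.42%. The transcripts were called in these same libraries, so the lack of overlap follows in large part from the choice and is no separate support. With edgeR's test against a fold change of 1.5 in place of 0, 23 transcripts were called, 21 raised and 2 fallen.

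**Figure D1:**
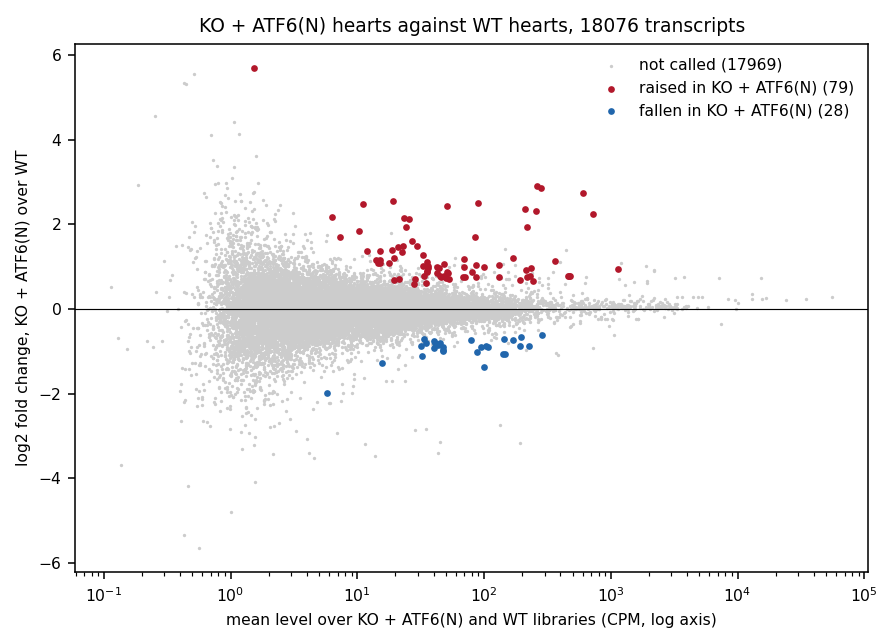
Log2 fold change of KO + ATF6(N) over WT hearts (y axis) against the mean level over the 12 libraries in CPM (log x axis), with 1 point for each of 18076 transcripts. The 79 raised transcripts reach a log2 fold change of 5.70 and the 28 fallen ones -1.98, and large changes of transcripts with few reads were mostly not called.

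The share of transcripts called depended on their level. No transcript with a mean of at most 1 CPM was called, of 554 tested. The share was 0.041% of 9768 transcripts between 1 and 10 CPM, 0.548% of 4561 between 10 and 30 CPM, 2.13% of 2202 between 30 and 100 CPM, 3.79% of 633 between 100 and 300 CPM, and 1.96% of 358 above 300 CPM. None of the 14 transcripts that were among the 10 most abundant of any of the 12 libraries was called.

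The called transcripts together took a larger or smaller part of the RNA. The 79 raised transcripts held 1.28 ± 0.133% of the reads in KO + ATF6(N) hearts, 0.634 ± 0.0574% in WT + ATF6(N), 1.12 ± 0.101% in KO and 0.565 ± 0.0381% in WT hearts (SD, n = 6 each). The lowest KO + ATF6(N) library stood at 1.09% and the highest WT library at 0.611%. The 28 fallen transcripts held 0.177 ± 0.0191% in KO + ATF6(N) hearts, 0.351 ± 0.0406% in WT + ATF6(N), 0.174 ± 0.0188% in KO and 0.346 ± 0.0476% in WT hearts (SD, n = 6 each). Here the highest KO + ATF6(N) library stood at 0.190% and the lowest WT library at 0.259%. The transcripts were chosen in the KO + ATF6(N) and WT libraries, so these shares describe the choice for those genotypes.

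**Figure D2:**
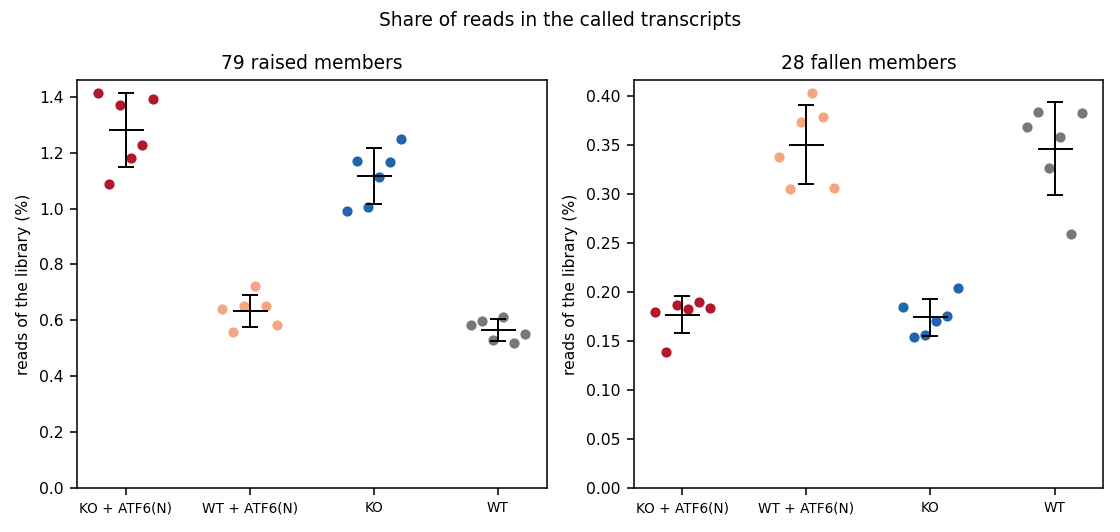
Percent of each library's reads in the 79 raised transcripts (left) and in the 28 fallen transcripts (right), by genotype; points are libraries, and bars the mean and SD of 6. KO + ATF6(N) and KO libraries lie together, at means of 1.28% and 1.12% on the left, and WT + ATF6(N) libraries lie near WT libraries, at 0.634% and 0.565%.

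The second largest rise, ENSORLT00000009162.2 (rise 2), was the called transcript with the smallest adjusted p together with rise 3. Its level was 394 to 509 CPM (median 474) in the KO + ATF6(N) libraries, against 49.0 to 69.2 CPM (median 63.9) in the WT libraries. All KO + ATF6(N) libraries were far above all WT libraries, and the log2 fold change was 2.90 ± 0.13 (standard error; edgeR adjusted p = 6.91e-20). Rise 3 was at 418 to 529 CPM (median 511) in KO + ATF6(N), against 58.6 to 82.4 CPM (median 67.0) in WT hearts, with a log2 fold change of 2.86 (standard error 0.13). Levels of rise 2 and rise 3 moved together, with a Pearson's r of 0.998 over the log2 levels of all 36 libraries, as a description of points that share genotype and depth. Whether both come from 1 gene was not tested.

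Rise 4 and rise 11 took the most reads among the 12 largest rises. The level of rise 4 was 629 to 1349 CPM (median 1089.8) in KO + ATF6(N) libraries, against 126 to 198 CPM (median 155) in WT libraries, and the log2 fold change was 2.74 ± 0.19 (standard error; edgeR adjusted p = 8.98e-14). For rise 11, the libraries ranged over 1049 to 1431 CPM (median 1171) in KO + ATF6(N) and 219.8 to 313 CPM (median 242) in WT hearts, a log2 fold change of 2.26 ± 0.13 (standard error; edgeR adjusted p = 1.22e-16). No library of either genotype overlapped with the other for these transcripts. Rise 50 took the most reads of all called transcripts, at 1220.2 to 1951 CPM (median 1451) in KO + ATF6(N), against 652 to 989.8 CPM (median 744) in WT hearts, and its log2 fold change was only 0.94 ± 0.15 (standard error; edgeR adjusted p = 9.85e-05).

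Rises 5, 6 and 8 had fewer reads and changes of similar size. Rise 5 was at 24.4 to 44.3 CPM (median 32.5) in KO + ATF6(N), against 2.47 to 10.3 CPM (median 5.25) in WT hearts. Rise 6 was at 140.5 to 176 CPM (median 146) in KO + ATF6(N), against 17.7 to 32.0 CPM (median 28.4) in WT hearts. Rise 8 was at 72.3 to 94.3 CPM (median 90.0) in KO + ATF6(N), against 5.48 to 22.2 CPM (median 16.4) in WT hearts. The 2 genotypes did not overlap for any of them, and the log2 fold changes were 2.56, 2.51 and 2.43 (standard errors 0.30, 0.15 and 0.20), with adjusted p = 1.78e-07, 1.63e-15 and 1.46e-11 from edgeR.

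ENSORLT00000003883.2 (rise 1) had the largest log2 fold change and the fewest reads. It had 88 counts over the KO + ATF6(N) libraries and 1 count over the WT libraries, and after scaling to library size the ratio was 83.7 with a 95% interval from 14.6 to 3342 that covers counting error only. Its levels were 0.702 to 8.11 CPM (median 2.31) in KO + ATF6(N) libraries, and it had 0 counts in 5 of the 6 WT libraries. The fitted log2 fold change of 5.70 ± 1.31 (standard error; edgeR adjusted p = 0.0171) depends on the prior count of the fit and was 7.04 without WT library 6, the only one with a count. Rise 7 and rise 12 were also large changes from low levels, with libraries that overlapped. Rise 7 was at 9.29 to 26.5 CPM (median 18.8) in KO + ATF6(N), against 0 to 10.1 CPM (median 1.82) in WT hearts (log2 fold change 2.48, adjusted p = 0.00514 from edgeR). Rise 12 was at 2.51 to 18.1 CPM (median 8.98) in KO + ATF6(N), against 0 to 4.19 CPM (median 2.42) in WT hearts (log2 fold change 2.19, adjusted p = 0.0346 from edgeR). The highest WT library of rise 7, and the lowest KO + ATF6(N) library of rise 12, reached into the range of the other genotype. Rise 1 lost its call when KO + ATF6(N) library 1 or WT library 2, 3 or 5 was left out (adjusted p up to 0.0823 from edgeR). Without WT library 2, rise 7 had a log2 fold change of 3.25, and it kept its call in all 12 fits without 1 library. Rise 12 lost it in 7 of 12 fits, when KO + ATF6(N) library 1, 3 or 5 or WT library 1, 2, 3 or 5 was left out (adjusted p up to 0.140 from edgeR).

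The falls were smaller than the rises. ENSORLT00000024480.2 (fall 2) was at 33.4 to 70.8 CPM (median 58.2) in the KO + ATF6(N) libraries, against 107.4 to 169 CPM (median 144) in the WT libraries. The genotypes were apart, with a log2 fold change of -1.37 ± 0.17 (standard error; edgeR adjusted p = 7.94e-07). ENSORLT00000037916.1 (fall 3) was at 2.10 to 13.6 CPM (median 10.2) in KO + ATF6(N), against 19.3 to 25.0 CPM (median 21.5) in WT hearts, a log2 fold change of -1.28 ± 0.29 (standard error; edgeR adjusted p = 0.0148). Its WT libraries lay close together, whereas the KO + ATF6(N) libraries were spread widely, and without KO + ATF6(N) library 6 the adjusted p was 0.0687 from edgeR.

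Fall 4 was at 13.6 to 27.6 CPM (median 20.5) in KO + ATF6(N), against 32.4 to 60.6 CPM (median 44.5) in WT hearts, a log2 fold change of -1.11 ± 0.20 (standard error; edgeR adjusted p = 9.95e-04). Fall 15 was at 138 to 188 CPM (median 159.6) in KO + ATF6(N), against 239 to 333 CPM (median 313) in WT hearts, a log2 fold change of -0.88 ± 0.14 (standard error; edgeR adjusted p = 8.71e-05). Neither overlapped between the genotypes. Fall 1 had few reads, at 0.442 to 4.77 CPM (median 2.16) in KO + ATF6(N), against 2.62 to 12.4 CPM (median 10.7) in WT hearts, and the lowest WT library, library 5, lay within the range of KO + ATF6(N) (log2 fold change -1.98, standard error 0.40, adjusted p = 0.00328 from edgeR).

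**Figure D3:**
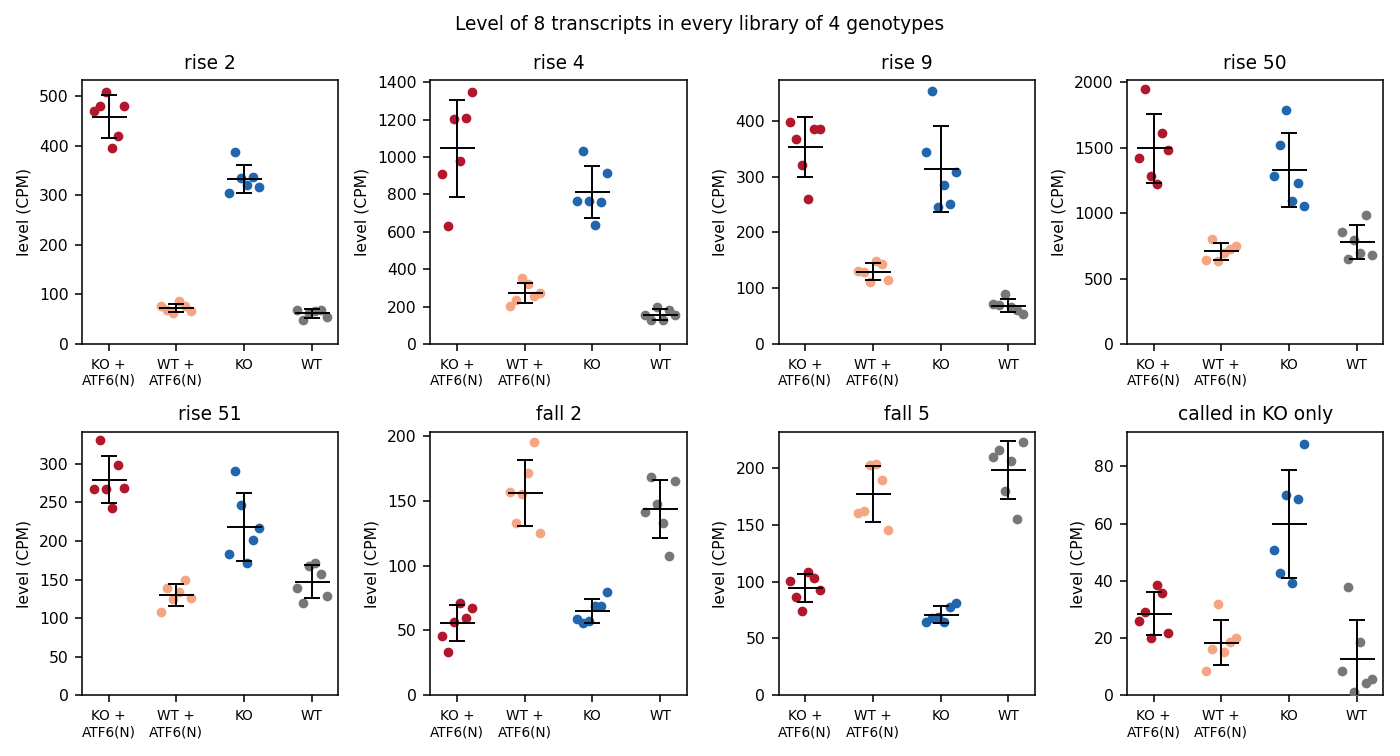
Level in CPM of 8 transcripts (y axes, from 0) in KO + ATF6(N), WT + ATF6(N), KO and WT hearts; points are the 6 libraries of a genotype, and bars their mean and SD. For rises 4, 9 and 50 and falls 2 and 5 the KO + ATF6(N) and KO libraries overlap and lie apart from the WT + ATF6(N) and WT libraries, for rise 2 they also lie apart from each other, whereas the transcript called in KO only averages 28.6 CPM in KO + ATF6(N) and 59.8 CPM in KO hearts.

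The called transcripts were then compared with those of KO hearts without ATF6(N). In KO hearts, 116 transcripts differed from WT hearts (0.642% of those tested), 79 raised and 37 fallen. Of these, 68 raised and 21 fallen transcripts were also called in KO + ATF6(N) hearts in the same direction, and 0 in the opposite direction. The 89 shared transcripts are 83.2% of the list with ATF6(N) and 76.7% of the list without it. With only the libraries of each comparison in the fit, 76 were shared, which are 50.7% of 150 and 79.2% of 96. The shared raised transcripts are 86.1% of each list, and the shared fallen transcripts are 75% of the list with ATF6(N) and 56.8% of the list without it. Both comparisons use the same WT libraries, so the lists share the error of those libraries. The 68 raised transcripts had a median log2 fold change of 1.10 over WT in KO + ATF6(N) and 0.94 in KO hearts, and the 21 fallen ones -0.88 in KO + ATF6(N) and -0.99 in KO hearts.

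A direct test of KO + ATF6(N) against KO hearts called 0 of 18076 transcripts (0%), and the smallest adjusted p was 0.99998 from edgeR. At an unadjusted p under 0.05 there were 407 transcripts (2.25%), and DESeq2 and limma-voom also called 0 (523 and 649 at an unadjusted p under 0.05). Evenly spread p-values would put a share of 0.05 of the transcripts there. The p-values of edgeR, DESeq2 and limma-voom thus all ran high, which limits what 0 calls can show. The 0 calls do not show that the levels were alike. At the same thresholds, the paper reports genes altered by ATF6α(N) in KO hearts, and it describes a further increase of BiP. It also reports more altered genes in KO against WT hearts than the transcripts called here. The paper counts genes instead of transcripts, and its text names no tool for differential expression in RNA-seq. The reason for the difference was not tested. The 95% interval of the difference between KO + ATF6(N) and KO lay within a fold change of 1.5 in either direction for 52 raised and 18 fallen transcripts, and for the other 27 and 10 it reached further. The median log2 fold change of KO + ATF6(N) over KO was 0.11 for the 79 raised transcripts, 62 of them above 0, and -0.02 for the 28 fallen ones, 13 of them above 0, against 48.9% above 0 among all transcripts tested. These transcripts were chosen in libraries that include the KO + ATF6(N) ones, which favours high values there for the raised and low values for the fallen transcripts. The 79 transcripts raised in KO over WT hearts, which were chosen in libraries that include the KO ones, had a median of 0.07, with 51 above 0. The 37 transcripts fallen in KO against WT hearts, chosen in the same way, had a median of 0.12, with 29 above 0. For the fallen ones this choice favours values above 0.

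**Figure D4:**
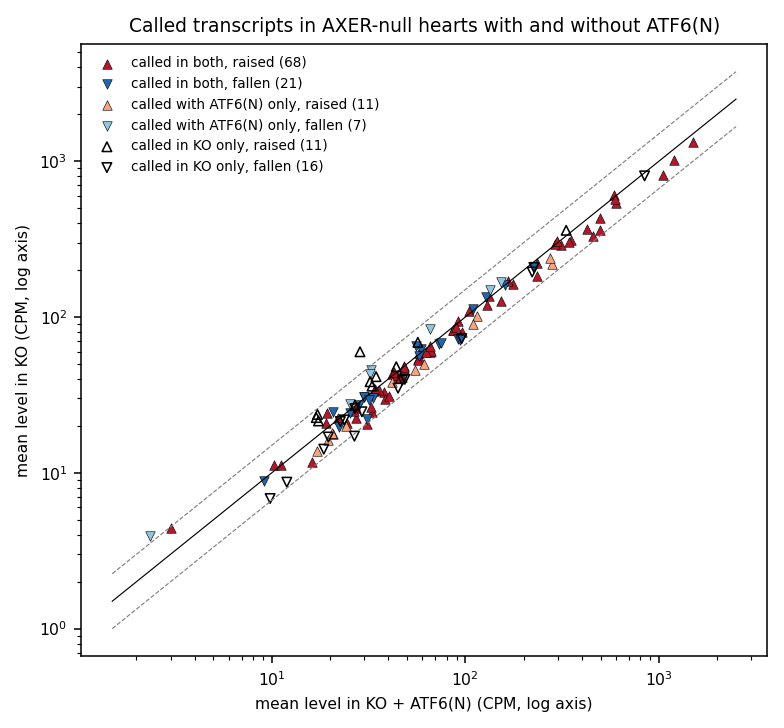
Mean level in KO hearts (y axis, CPM, log scale) against mean level in KO + ATF6(N) hearts (x axis, CPM, log scale) for the 134 transcripts called against WT in either genotype; the solid line marks equal levels and the dashed lines a 1.5-fold difference. Of the 134, none differed between the 2 genotypes after adjustment, and most lie between the dashed lines.

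Rises 2 and 3 stood highest relative to KO hearts by their error. Rise 2 was at 304 to 386 CPM (median 327) in KO libraries, and all KO + ATF6(N) libraries, at 394 CPM or more, were above these. This held for no other raised transcript, but the share of all transcripts for which it held was not counted. Rise 2 was also chosen for high values in KO + ATF6(N) libraries, which favours such a separation. Its log2 fold change of KO + ATF6(N) over KO was 0.46 (standard error 0.12) and that of rise 3 was 0.45 (standard error 0.12). Rise 23 had the largest value, at 22.5 to 42.5 CPM (median 29.9) in KO + ATF6(N), 13.2 to 27.2 CPM (median 20.7) in KO and 8.28 to 15.3 CPM (median 10.8) in WT hearts, a log2 fold change of 0.58 over KO, and its KO + ATF6(N) libraries overlapped with KO but not with WT libraries. Rise 4 was at 635 to 1033 CPM (median 766) in KO libraries, which overlapped with KO + ATF6(N) (log2 fold change 0.36, standard error 0.18). None of these differences passed the adjusted threshold.

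Of the 28 fallen transcripts, 13 had mean levels between those of KO and WT hearts, falls 5 and 6 among them. The largest log2 fold change over KO among the fallen transcripts was that of fall 18, at 0.47 (95% interval 0.11 to 0.83), without a call. Fall 5 was at 74.1 to 108 CPM (median 96.4) in KO + ATF6(N), 64.2 to 81.5 CPM (median 68.7) in KO and 155 to 222 CPM (median 208) in WT hearts. Fall 6 was at 71.1 to 105 CPM (median 94.6) in KO + ATF6(N), 54.5 to 88.2 CPM (median 71.5) in KO and 145 to 219 CPM (median 197) in WT hearts. KO + ATF6(N) overlapped with KO and not with WT hearts for both. Their log2 fold changes were 0.41 and 0.35 over KO (standard errors 0.13 and 0.14, not past the adjusted threshold), and each had -1.07 over WT hearts, with adjusted p = 2.37e-07 and 4.79e-06 from edgeR. The level of fall 6 was 0.872 to 1.02 times that of fall 5 over the KO + ATF6(N) and WT libraries, so they may not be separate changes, and whether they share reads was not tested.

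With ATF6(N), 18 changes appeared that were not called in KO hearts, 11 raised and 7 fallen. All 18 had the same direction in KO hearts, with adjusted p values between 0.00225 and 0.938, and none was called between KO + ATF6(N) and KO hearts. Rise 51 had the smallest adjusted p of the 18 against WT (1.09e-05 from edgeR, log2 fold change 0.92, standard error 0.13), at 243 to 331 CPM (median 268) in KO + ATF6(N), 108 to 150.0 CPM (median 130.2) in WT + ATF6(N), 171 to 290.4 CPM (median 209) in KO and 119.3 to 172 CPM (median 148) in WT hearts. KO + ATF6(N) was apart from both genotypes with functional AXER and overlapped with KO hearts, in which this transcript had an adjusted p of 0.0174 and a log2 fold change of 0.57, under the fold change rule. Rise 68 was the other transcript that missed the call in KO hearts by its fold change alone. It was at 227 to 306 CPM (median 286) in KO + ATF6(N), 204 to 282 CPM (median 231) in KO and 153 to 184 CPM (median 155) in WT hearts.

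The largest of the appearing rises was rise 25, at 9.31 to 30.3 CPM (median 13.9) in KO + ATF6(N), 9.16 to 23.7 CPM (median 12.1) in KO and 3.77 to 11.0 CPM (median 5.03) in WT hearts. The libraries of all 3 genotypes overlapped, and the log2 fold change over WT was 1.38 in KO + ATF6(N) (adjusted p = 0.0230) and 1.07 in KO hearts (adjusted p = 0.171), both from edgeR. Leaving out KO + ATF6(N) library 1 or 6 or WT library 1, 3, 4 or 5 ended this call (adjusted p up to 0.167 from edgeR). The largest of the appearing falls was fall 1, with a log2 fold change of -1.22 in KO hearts (adjusted p = 0.197 from edgeR). Fall 20 had the level in KO hearts closest to WT, with a log2 fold change of -0.32 in KO and -0.80 in KO + ATF6(N) hearts. The count of 18 depends on the fit. It was 74 when only the 12 libraries of each comparison were fitted and 36 with DESeq2. When 1 KO + ATF6(N) or WT library was left out it was 12 to 25, and KO libraries were not left out for this count.

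Conversely, 27 transcripts called in KO hearts were not called in KO + ATF6(N) hearts, 11 raised and 16 fallen in KO. All 27 had the same direction in KO + ATF6(N) hearts and mean levels between those of KO and WT hearts. The median log2 fold change over WT was 0.61 in KO + ATF6(N) and 0.79 in KO for the 11, and -0.58 in KO + ATF6(N) and -0.82 in KO for the 16. Because they were chosen as calls in KO hearts alone, smaller values with ATF6(N) follow in part from the choice. None was called between KO + ATF6(N) and KO hearts.

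Among the 134 transcripts called against WT in either AXER-null genotype, the one with the largest fold change between KO + ATF6(N) and KO was raised in KO over WT hearts with a log2 fold change of 2.23 (adjusted p = 0.0295 from edgeR). Its levels were 20.2 to 38.7 CPM (median 27.4) in KO + ATF6(N), 8.56 to 32.0 CPM (median 17.4) in WT + ATF6(N), 39.3 to 87.6 CPM (median 59.7) in KO and 1.30 to 38.0 CPM (median 7.18) in WT hearts. All KO + ATF6(N) libraries were below all KO libraries, but WT library 2 was among the KO + ATF6(N) values (adjusted p = 0.796 against WT from edgeR, or 0.0674 without WT library 2). For this transcript the lack of a call depends on the method. It was called raised in KO + ATF6(N) over WT hearts by limma-voom (log2 fold change 2.21, adjusted p = 0.0195), and by none of the other alternatives. Another, which fell in KO hearts with a log2 fold change of -0.82, was at 20.8 to 30.8 CPM (median 26.8) in KO + ATF6(N), 11.2 to 21.7 CPM (median 17.2) in KO and 26.0 to 46.5 CPM (median 26.3) in WT hearts. Its KO + ATF6(N) level overlapped with that of both, and its log2 fold change was 0.63 over KO (standard error 0.19) and -0.20 over WT hearts (standard error 0.19). In contrast, some of the 27 missed the call narrowly, among them a transcript with a log2 fold change of 1.18 in KO + ATF6(N) and 1.20 in KO hearts (adjusted p = 0.0613 and 0.0497 from edgeR). It was at 19.8 to 32.7 CPM (median 28.5) in KO + ATF6(N), 20.2 to 35.3 CPM (median 26.1) in KO and 2.74 to 19.0 CPM (median 11.8) in WT hearts.

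ATF6(N) in WT hearts called 2 transcripts (0.0111% of those tested), and both were among the 79 raised ones. Rise 9 was at 259 to 398 CPM (median 377) in KO + ATF6(N), 110.5 to 149 CPM (median 129) in WT + ATF6(N), 245 to 453 CPM (median 296) in KO and 54.5 to 89.2 CPM (median 67.7) in WT hearts. Rise 10 was at 336 to 509.6 CPM (median 425) in KO + ATF6(N), 124.6 to 176 CPM (median 153) in WT + ATF6(N), 283 to 511 CPM (median 355) in KO and 71.2 to 102 CPM (median 85.9) in WT hearts. For both, WT + ATF6(N) was above WT and below KO + ATF6(N) and KO without overlap, whereas KO + ATF6(N) and KO overlapped. The log2 fold change of ATF6(N) was 0.91 and 0.80 in WT hearts (adjusted p = 0.00163 and 0.00989 from edgeR) and 0.17 and 0.21 in KO hearts. The test of this difference called 0 of 18076 transcripts (0%), with 503 (2.78%) at an unadjusted p under 0.05. This too is a smaller share than evenly spread p-values would give.

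Over the 79 raised transcripts, the median log2 fold change of WT + ATF6(N) over WT was 0.09, with 52 above 0, and over the 28 fallen ones it was -0.09, with 8 above 0, against 51% above 0 of all transcripts tested. These values share the WT libraries with the choice of the transcripts. Rise 4 was at 203 to 353 CPM (median 266) in WT + ATF6(N) hearts, above all WT libraries, without a call (log2 fold change 0.80, adjusted p = 0.461 from edgeR).

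The 79 raised and 28 fallen transcripts were then examined in KO against WT + ATF6(N) hearts, a comparison added after the data were seen. Its libraries were outside the contrast that chose the transcripts. They did enter the shared fit that gave the filter, the scaling and the spread, so this is not an independent check. This comparison differs from the first in that the active copy of ATF6α is in the hearts with functional AXER. All 79 raised transcripts were higher in KO than in WT + ATF6(N) hearts, with a median log2 fold change of 0.90 (range 0.07 to 3.19), and 60 of them were called raised, against 0.575% of all transcripts. All 28 fallen transcripts were lower, with a median of -0.83 (range -1.32 to -0.08), and 19 of them were called fallen, against 0.155% of all transcripts. Among all transcripts, 48.9% were above 0 and the median was -0.01. Of the 18 transcripts that appeared with ATF6(N), 5 raised and 1 fallen were called here, but these had been chosen for the lack of a call in KO hearts, so the KO libraries did take part in that choice.

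**Figure D5:**
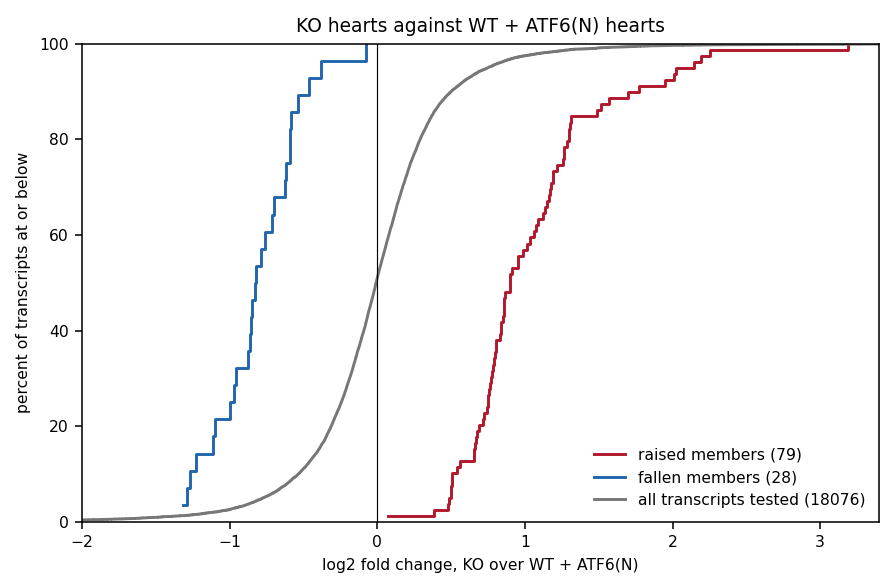
Cumulative percent of transcripts (y axis) at or below each log2 fold change of KO over WT + ATF6(N) hearts (x axis), for the 79 raised, the 28 fallen and all 18076 transcripts tested. The raised transcripts all lie above 0 and the fallen ones all below 0, with medians of 0.90 and -0.83, whereas all transcripts are centred near 0.

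Considering the 4 genotypes together, all 12 AXER-null libraries (KO + ATF6(N) and KO) were above all 12 libraries with functional AXER (WT + ATF6(N) and WT) for 45 of the 79 raised transcripts, against 0.266% of all transcripts tested, and below them for 12 of the 28 fallen ones, against 0.0775%. Among the transcripts shared by both null genotypes these were 42 of 68 raised and 12 of 21 fallen, and among those that appeared with ATF6(N), 3 of 11 raised and 0 of 7 fallen. The libraries used in this count include those that chose the transcripts. Levels of the called transcripts were also set against each other within a genotype. Over the KO + ATF6(N) and WT libraries, after each genotype's mean was taken out, the median Pearson's r among 5671 pairs of called transcripts was 0.01, and 3 pairs were above 0.9, including falls 5 and 6. The pairs mix raised with fallen transcripts, and r was not taken over all transcripts. This median therefore does not show whether the raised or the fallen ones moved together. Estimates were not whole in some library, which happens where reads fit several transcripts, for 63 raised and 18 fallen transcripts, and these may include transcripts of the same gene. When only transcripts with whole estimates were tested, 11068 passed the filter, against 18076 of all transcripts. Of the 11068, 19 were called, 11 raised and 8 fallen, against 79 raised and 28 fallen of the 18076. Transcripts with fractional estimates were therefore more common among the raised and the fallen transcripts than among all tested. Whether this holds for transcripts of equal level was not tested.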

How the data were processed

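Lasy-Seq libraries, indexed at reverse transcription and then pooled, were made from total RNA of 5 dpf medaka hearts. The authors trimmed reads with fastp 0.21.0, mapped them with BWA 0.7.17-r1188 and quantified them with salmon, and the deposited values are estimated counts per transcript and library. The labels and the methods name mouse GRCm38 as the mapping reference although all identifiers are medaka transcripts, they differ on the strain (HdrR or cab) and on the RNA input, and salmon was run without strand, so antisense reads cannot be told apart. Fractions occurred in 1.88% of the deposited estimated counts (tolerance 1e-06), and every value was rounded.

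The software was edgeR 4.0.16 in R 4.3.3. After filterByExpr by genotype, 18076 transcripts (48.2%) were kept. All 36 libraries of the 6 genotypes, XBP1(S) ones included, entered 1 robust quasi-likelihood fit with a mean for each genotype and TMM factors. Thresholds were those of the study's text, 0.05 for the adjusted p and 1.5 for the fold change. Standard errors were derived from the test, as the absolute log2 fold change divided by the square root of the quasi-likelihood F. Intervals of fold changes between KO + ATF6(N) and KO are 1.96 of these standard errors. DESeq2 1.42.0, limma 3.58.1 (limma-voom), another normalization, no filter, other fold rules and a fit of the compared libraries alone were alternatives. Others were thinning to 1850806 reads and removal of the 10 most abundant transcripts or of transcripts with fractional estimates. Libraries of KO + ATF6(N), KO and WT hearts were also left out 1 at a time. The comparison of KO with WT + ATF6(N) and the difference of the ATF6(N) effect were chosen after seeing the data.

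The transcripts and gene lists were chosen with earlier results of these data known. The rule for named genes names the 2 largest rises and 2 largest falls without overlap and at 1 CPM or more, since no identifier matched a gene name (0 of 37495, against 26845 genes). Marker and pathway lists could not be applied for that reason. Other transcripts are described by their rank in fold change, by level or by class.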

Additional observations from a re-analysis of the deposited data

Results flagged for a closer look

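Of 66 groups of 6 libraries examined for the described transcripts and read shares, 6 held a library that stood apart from the rest. The measure was the size of its gap to the next relative to the range. For independent normal values, chance gives such a gap in about 1 of 20 groups. These groups share libraries and some hold few counts, so that rate need not hold here. Rise 1 was at 8.11 CPM in KO + ATF6(N) library 1, the highest of that genotype, and at 0.323 CPM in WT library 6, the only WT library with a read. Rise 37 was at 10.5 CPM in KO + ATF6(N) library 4, the lowest. Rise 11 was at 313 CPM in WT library 4, the highest. The transcript that fell in KO hearts with a log2 fold change of -0.82 and was not called with ATF6(N) was at 46.5 CPM in WT library 4, the highest. The 28 fallen transcripts held 0.138% of the reads in KO + ATF6(N) library 2, the lowest.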

How the results depend on the processing

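The values are limited by identifiers without gene names and by not knowing whether libraries came from separate hearts. Calls of KO + ATF6(N) against WT, of KO against WT, shared and appearing numbered 79 raised with 28 fallen, 116, 89 and 18. Against a fold change of 1.5 (glmTreat) they were 23, 21, 16 and 7, and with whole estimates only, where fewer transcripts were tested, 19, 21, 14 and 5. The appearing calls were 74 with only the libraries compared in each fit and 36 with DESeq2, and the cause was not tested. Leaving out 1 library of the compared genotypes gave 96 to 105 calls of KO + ATF6(N) against WT and 91 to 117 of KO against WT. For the shared and appearing calls, only KO + ATF6(N) or WT libraries were left out, which gave 73 to 86 and 12 to 25. How these 2 counts move without a KO library was not examined. DESeq2 called 145 against WT (89 raised, 56 fallen), only the libraries compared 150, no filter 99 and the other alternatives 100 to 120. KO + ATF6(N) against KO kept 0 calls in every alternative. For the 29 transcripts described, 560 values under alternatives kept direction and call, 39 lost the call, 10 gained it and 0 reversed. All 12 fits without 1 library called 76 of the 89 shared and 5 of the 18 appearing transcripts, and every alternative that gave an adjusted p called 23 and 0. No paired analysis was possible because the libraries carry no replicate numbers that mark a shared animal, clutch or day across genotypes.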

Other observations

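Some transcripts differed more between the means of KO + ATF6(N) and WT hearts than most called ones without being called. At a mean of 10 CPM or more in either genotype, 11 uncalled transcripts had a fold change beyond 4, and all 11 were lower in KO + ATF6(N) hearts, whereas 13 called transcripts passed these limits. This choice was made after seeing the data. Their levels varied widely within WT hearts: the one with the most reads was at 9.07 to 66.4 CPM (median 36.9) in KO + ATF6(N), 25.6 to 1271 CPM (median 384) in WT + ATF6(N), 24.8 to 355 CPM (median 128) in KO and 50.2 to 1557 CPM (median 110.2) in WT hearts, with a log2 fold change of -3.17 against WT (adjusted p = 0.211 from edgeR). WT library 2 was the highest of the WT libraries, and KO library 3 the highest of the KO libraries, for all 11. The 11 thus shared part of their spread between libraries and may not be separate changes. For some of the 11, library 2 was also the highest in WT + ATF6(N) and in KO + ATF6(N) hearts, though not in KO hearts, and for others it was not. One was at 66.7 CPM in WT, 115 CPM in WT + ATF6(N), 13.7 CPM in KO + ATF6(N) and 0.177 CPM in KO library 2. Whether libraries with the same number share a clutch or batch was not tested. Of the 11, 1 had all KO + ATF6(N) libraries below all WT libraries, against 0.42% of all transcripts tested. The 11 were chosen for a large fold change in these libraries, so this is no separate support. Without WT library 2, 100 transcripts were called in KO + ATF6(N) against WT hearts, 72 raised and 28 fallen, and 97 of the calls made with it were among them.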
